A study of Mus musculus with 12 samples.

Results

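Transcripts of 29 salivary gland secretory genes were read in RNA-seq libraries of sorted mouse mammary epithelial cells. The genes were taken by symbol from the deposited count table, and they are 29 of its 20114 entries that name a single locus. They were chosen by their measured levels in these libraries, the values described below, so those levels are a description and were not tested. The genes were placed by gland from textbook knowledge. Psp, Amy1, Car6 and Dnase1 are parotid-type. Dcpp1, Dcpp2 and Dcpp3 belong to demilune cells. Muc19 is the mucous mucin of the sublingual gland. Smr3a and Prol1 were placed with submandibular acini. Egf, Ren1 and 13 kallikreins (Klk1 and 12 genes of the Klk1b cluster) were placed with submandibular granular ducts. Pip, Lpo, Cst10 and Aqp5 are shared by several glands.

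The study compared 3 groups of 4 libraries, all from primary mammary epithelial cells of adult females aged 9 weeks on a mixed 129X1/SvJ, C57BL/6 and Swiss Webster background. All 3 groups carried the mT-mG reporter, which turns from red to green membrane fluorescence on Cre recombination, and a SmoM2 allele, which encodes an activated form of the Hedgehog signal transducer Smoothened. Recombined cells (mT-mG/SmoM2;MMTV-Cre, green) expressed SmoM2 after recombination by a Cre under the MMTV promoter, which is active in mammary epithelium and is known to be active in salivary glands as well. Unrecombined cells came from that same genotype but kept the red reporter and lacked SmoM2, and wild type cells (mT-mG/SmoM2;+) had no Cre. The labels do not say which animals each library came from, so errors and p values here measure the spread between libraries. Total counts lay between 19581993 and 34779433 per library. Mitochondrial loci held 13.1% to 27.8% of single-locus counts, with the highest shares in unrecombined library 2 (27.8%) and recombined library 2 (24.2%). The labelled sex was checked after the data were seen: the Xist entry held between 111108 and 201801 counts, and the Y-linked entries of Ddx3y, Kdm5d, Uty and Zfy1 held at most 4 counts each, in all 12 libraries.

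Saliva is made by 3 pairs of large glands. Parotid acini are serous and secrete digestive and protective proteins such as amylase and carbonic anhydrase. The sublingual gland makes mucins, and its demilunes are caps of serous cells on the mucous acini. In mice the submandibular gland has granular ducts that store tissue kallikreins, epidermal growth factor and renin, and that are more developed in males than in females. The mammary gland is also a secretory epithelium, best known for milk proteins, and some of these proteins, such as lactoperoxidase, are known in both.

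Libraries stood apart before any comparison of groups. The 29 genes took 7.67% of all single-locus counts in unrecombined library 2 (95% Wilson interval 7.66 to 7.68), 4.29% in wild type library 2 and 2.00% in recombined library 2. In unrecombined library 1 and recombined library 1 the shares were 0.160% and 0.148%. In each of the other 7 libraries the share was at most 0.0128%, most of it in 4 entries that join a member to a neighbouring gene. These are Amy1 (joined with Rnpc3, mKIAA1839 and AK017534), Dnase1 (with Trap1), Egf (with AK031828) and Muc19 (with Smgc and BC119421), whose counts may therefore include reads of the neighbour. The intervals cover counting error only. In bulk samples of this kind, fewer cells of a type and less RNA per cell cannot be told apart.

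All 29 members had more than 3 counts in recombined library 2 and in unrecombined library 2, and 20 did in wild type library 2. The numbers were 17 in unrecombined library 1 and 14 in recombined library 1, and between 3 and 11 in the other libraries. Levels below are CPM, counts relative to library sizes scaled by the trimmed mean of M values (TMM). A level of 3 counts, the limit that a count of 0 allows, was between 0.0896 and 0.162 CPM on this scale. Unrecombined library 2 had the highest level of 26 members, recombined library 2 that of Klk1b24 and Klk1b27, and wild type library 2 that of Dcpp3. In the remaining 7 libraries 14 of the 29 members had at most 3 counts in each library, and 23 had at most 20.

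**Figure D1:**
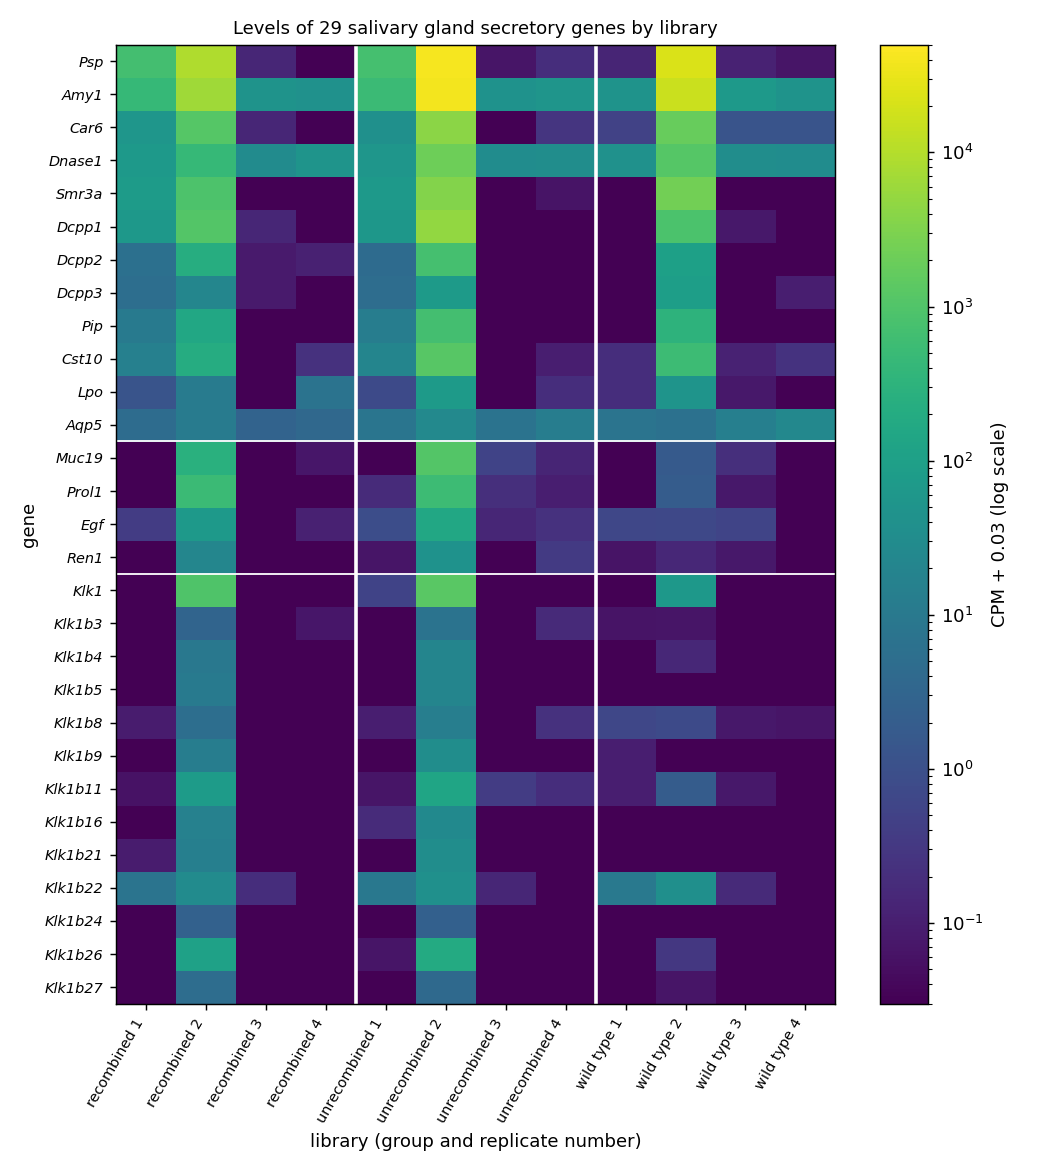
Level of each of the 29 genes (y axis) in each of the 12 libraries (x axis, group and replicate number), as CPM + 0.03 on a logarithmic color scale. The upper block of 12 genes, Aqp5 aside, is bright in recombined libraries 1 and 2, unrecombined libraries 1 and 2 and wild type library 2, while the middle block (Muc19, Prol1, Egf and Ren1) and most of the kallikreins in the lower block are bright in recombined library 2 and unrecombined library 2.

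The parotid-type transcripts were present in 5 libraries, drawn from all 3 groups. Psp encodes parotid secretory protein, and its entry begins at position 153834011 of chromosome 2 in mm9. It stood at 685, 9254, 0.108 and 0 CPM in recombined libraries 1 to 4. Psp stood at 713, 40625, 0.0359 and 0.170 CPM in unrecombined libraries 1 to 4. In wild type libraries 1 to 4 it stood at 0.102, 21614, 0.0873 and 0.0358 CPM. Libraries numbered 2 were the highest of each group, those numbered 1 were intermediate in the groups with Cre and at background in wild type, and the ranges of the 3 groups overlapped. In the 7 libraries without it, Psp had between 0 and 5 counts.

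Amy1 encodes salivary amylase, which cleaves starch. Its joined entry stood at 442, 6573, 47.3 and 41.4 CPM in recombined libraries 1 to 4, at 511, 38733, 43.5 and 53.9 in unrecombined libraries, and at 46.9, 15585, 69.9 and 47.5 in wild type libraries. The same 5 libraries were high, on top of a level of 41.4 to 69.9 CPM that was present in the other 7. How much of that lower level comes from the neighbouring genes of the entry cannot be read from the counts. Dnase1, which encodes a secreted nuclease, has the same feature, with 30.4 to 49.96 CPM in those 7 libraries and 443, 2108 and 1173 CPM in recombined, unrecombined and wild type libraries numbered 2.

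Car6 encodes the secreted carbonic anhydrase of saliva. It stood at 54.7, 1125, 0.108 and 0 CPM in recombined libraries 1 to 4, at 40.4, 4117, 0 and 0.238 in unrecombined libraries, and at 0.477, 1823, 1.22 and 1.22 in wild type libraries. High and low libraries were those of Psp. Summed over the 4 parotid-type entries, levels averaged 4703 ± 8479 CPM in recombined, 21766 ± 42548 in unrecombined and 10118 ± 20052 in wild type libraries (SD, n = 4 each), so that in every group the SD was larger than the mean.

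Smr3a encodes a small proline-rich salivary protein, first described in the submaxillary gland as regulated by androgen. It stood at 79.9, 931, 0 and 0 CPM in recombined libraries 1 to 4, at 71.6, 3531, 0 and 0.0340 in unrecombined libraries, and at 0, 2399, 0 and 0 in wild type libraries. It was high in the libraries with Psp, unlike Prol1 of the same class. Which gland its counts came from was not tested, and it was kept in the submandibular class for the sums below. Against 100 counts of Psp, Smr3a had 11.7, 10.06, 10.04, 8.69 and 11.1 counts in recombined libraries 1 and 2, unrecombined libraries 1 and 2 and wild type library 2. Its highest ratio was 1.34 times its lowest, while the level of Psp itself ran from 685 to 40625 CPM. Of all stretches of 50 bases in a GENCODE transcript of Smr3a, 45.6% also occur in another gene, Gm28434. The counts of Smr3a may therefore hold reads of that gene.

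Pip and Cst10, placed with several glands, kept a similarly narrow ratio to Psp. Pip encodes prolactin-induced protein, a secreted protein of several exocrine glands, the mammary gland among them. It had 1.496 to 1.80 counts per 100 counts of Psp in these 5 libraries and 0 counts in all the other 7. Its levels in the 5 were 10.54 and 159.5 CPM in recombined libraries 1 and 2, 12.9 and 709.9 in unrecombined libraries 1 and 2, and 323 in wild type library 2. Cst10, a cystatin family member, had 2.27 to 2.90 counts per 100 counts of Psp, with 15.53 and 217 CPM in recombined libraries 1 and 2, 20.5 and 1178 in unrecombined libraries 1 and 2, and 567 in wild type library 2. Lpo, lactoperoxidase of saliva and milk, had 0.102 to 0.224 counts per 100 counts of Psp and reached 72.6 CPM in unrecombined library 2. Unlike the others, Lpo also stood at 6.93 CPM in recombined library 4, where Psp had 0 counts.

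The Dcpp genes encode proteins of demilune cells and the parotid gland, and lie side by side on chromosome 17. Dcpp1 stood at 64.0, 1064, 0.108 and 0 CPM in recombined libraries 1 to 4, at 60.6, 4889, 0 and 0 in unrecombined libraries, and at 0, 867, 0.0436 and 0 in wild type libraries. It was high in the same 5 libraries as Psp, but wild type library 2 had less of it for its level of Psp. Per 100 counts of Psp, Dcpp1 had 4.01 counts in wild type library 2 and 8.50 to 12.03 in the other 4.

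The make-up of the Dcpp counts also differed between these libraries. Dcpp2 made up 16.9% and 12.7% of Dcpp counts in recombined library 2 and unrecombined library 2, against 7.80%, 6.41% and 9.53% in recombined library 1, unrecombined library 1 and wild type library 2. Dcpp3 made up 1.63% and 1.33% in the first pair, against 6.92%, 7.14% and 8.65% in the other 3 libraries. Dcpp3 was thus the one member with its highest level in wild type library 2 (91.6 CPM, against 75.5 in unrecombined library 2). The transcripts share sequence: of all stretches of 50 bases in a GENCODE transcript, 46.5% of those of Dcpp1, 43.0% of Dcpp2 and 46.1% of Dcpp3 also occur in another gene, so reads may be split unevenly between the 3.

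Bases just upstream of the annotated starts are shown for 5 members that were high in these 5 libraries and that hold the motif TATAAG near the start. They were chosen by that motif. Amy1, Car6, Dnase1, Pip, Lpo and Cst10 do not hold it there and are not shown. The bases are the 100 that end at the start, on the plus strand of GRCm38.p6, from RefSeq, whose name for Psp is Bpifa2. Capitals mark TATAAG, a variant of the TATA box.
Psp (chr2:154008176-154008275): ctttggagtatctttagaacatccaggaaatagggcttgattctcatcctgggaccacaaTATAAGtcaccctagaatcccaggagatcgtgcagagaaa
Smr3a (chr5:88002425-88002524): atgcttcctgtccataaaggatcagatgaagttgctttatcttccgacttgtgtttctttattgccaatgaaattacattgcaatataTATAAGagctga
Dcpp1 (chr17:23880776-23880875): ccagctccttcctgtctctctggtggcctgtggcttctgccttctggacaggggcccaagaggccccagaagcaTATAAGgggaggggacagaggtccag
Dcpp2 (chr17:23898622-23898721): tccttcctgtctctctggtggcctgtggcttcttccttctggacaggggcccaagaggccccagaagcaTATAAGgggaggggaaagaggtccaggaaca
Dcpp3 (chr17:23917358-23917457): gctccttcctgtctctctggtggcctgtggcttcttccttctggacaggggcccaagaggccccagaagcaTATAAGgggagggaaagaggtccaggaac

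RefSeq promoters (250 bases before to 50 after each start) were found for 28 of the 29 members, Muc19 being the exception. The motif TATAAG, on the gene's strand and beginning 10 to 45 bases before the start, was in the promoters of 6 members (the 5 shown and Klk1b3) and in 1.20% of all 32851 promoters. On either strand and anywhere in the 300 bases, TATAAG was in 7 members and in 7.43% of promoters. The promoters of Dcpp2 and Dcpp3 were 96.6% and 97.3% identical to that of Dcpp1 over the aligned bases, so the 3 do not count as separate cases. These motifs were chosen after the letters were seen, and a match is a description only.

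A second set of members was high in fewer libraries. The 13 kallikrein entries begin between positions 51206041 (Klk1b8) and 51480806 (Klk1) of chromosome 7 in mm9. Klk1 encodes tissue kallikrein, a serine protease that releases kinins. It stood at 0, 959, 0 and 0 CPM in recombined libraries 1 to 4, at 0.507, 1252, 0 and 0 in unrecombined libraries, and at 0, 62.7, 0 and 0 in wild type libraries. High levels were thus in recombined library 2 and unrecombined library 2, with a lower level in wild type library 2, and the ranges of the 3 groups overlapped at 0. Against 100 counts of Psp, Klk1 had 10.4 counts in recombined library 2, 3.08 in unrecombined library 2, 0.290 in wild type library 2, 0.071 in unrecombined library 1 and 0 in recombined library 1. The 0 counts of Klk1 in recombined library 1 allow at most 3, beside 22938 counts of Psp.

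Klk1b26 and Klk1b11 were next among the kallikreins. Klk1b26 stood at 108 CPM in recombined library 2, 188 in unrecombined library 2 and 0.271 in wild type library 2, and at no more than 0.0362 in each of the other 9. Klk1b11 stood at 76.3, 133 and 1.90 CPM in recombined, unrecombined and wild type libraries 2, and at no more than 0.359 elsewhere. Of the remaining kallikreins apart from Klk1b22, Klk1b3, Klk1b4, Klk1b5, Klk1b8, Klk1b9, Klk1b16, Klk1b21, Klk1b24 and Klk1b27 reached between 2.49 and 33.4 CPM, in one or the other of recombined library 2 and unrecombined library 2. None of these was above 0.735 CPM in a wild type library. The 12 Klk1b genes and Klk1 share sequence, between 10.1% and 33.9% of stretches of 50 bases per gene, so the levels of the rarer ones may hold reads of others.

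The kallikreins held 11.9% of the summed counts of kallikreins and Psp in recombined library 2 (95% Wilson interval 11.8 to 12.1) and 4.19% in unrecombined library 2 (4.15 to 4.22). In wild type library 2 the share was 0.476% (0.458 to 0.495). These intervals do not overlap, and they cover counting error in single libraries only. Between recombined library 2 and unrecombined library 2 the parotid-type entries were 3.66 to 5.89 times higher in the unrecombined library. Over the 13 kallikreins the same ratio ran from 0.821 to 2.64, with a median of 1.75. Both libraries carry the replicate number 2 and adjacent library numbers in the labels, which do not say what these numbers stand for. Wild type library 2 has the next number after them.

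**Figure D2:**
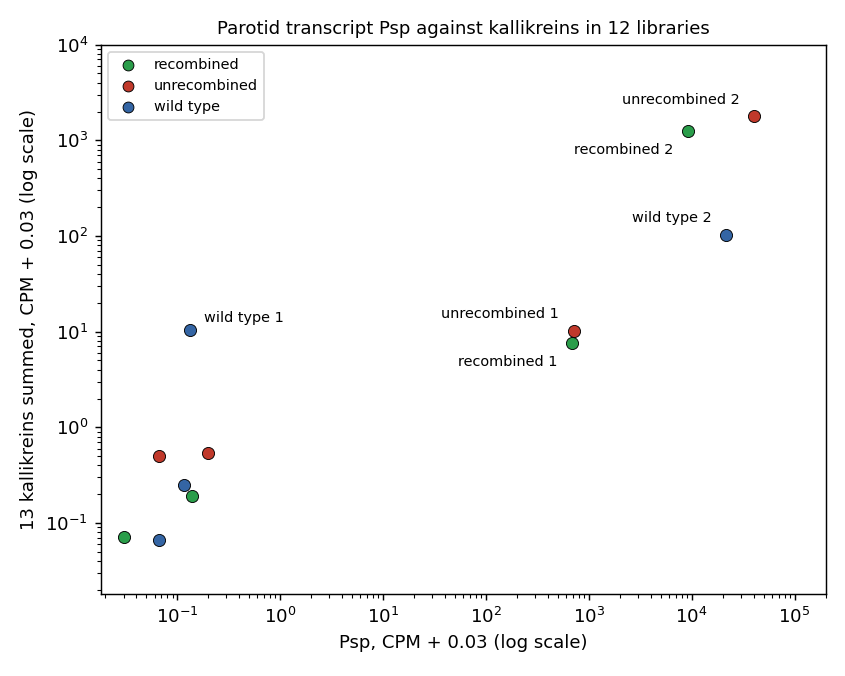
Summed CPM of the 13 kallikreins (y axis) against CPM of Psp (x axis), both + 0.03 on log axes, 1 point per library, colored by group. Wild type library 2 lies between recombined library 2 and unrecombined library 2 on the Psp axis (21614 against 9254 and 40625 CPM) and far below both on the kallikrein axis (103 against 1254 and 1775 CPM).

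Klk1b22 had its own distribution. It encodes a kallikrein that is also known as a binding protein of epidermal growth factor. It stood at 7.496, 30.2, 0.162 and 0 CPM in recombined libraries 1 to 4, at 9.42, 40.5, 0.108 and 0 in unrecombined libraries, and at 9.67, 37.7, 0.131 and 0 in wild type libraries. Libraries numbered 1 and 2 were high in every group, wild type library 1 included, and those numbered 3 and 4 were near or at 0. Wild type library 1 had 284 counts of Klk1b22, but 3 of Psp and 0 of Klk1. Klk1b22 made up 36.4% of kallikrein counts in wild type library 2, against 2.41% and 2.28% in recombined library 2 and unrecombined library 2. It therefore carries nearly all of the kallikrein sum in recombined library 1 (98.0%), unrecombined library 1 (92.2%) and wild type library 1 (92.5%).

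Upstream bases of 3 kallikreins are shown to set Klk1b22 beside a pair that was low in wild type library 2. They are again the 100 bases that end at the RefSeq start, on the plus strand of GRCm38.p6, with the motif TTTAAA in capitals.
Klk1b26 (chr7:44012578-44012677): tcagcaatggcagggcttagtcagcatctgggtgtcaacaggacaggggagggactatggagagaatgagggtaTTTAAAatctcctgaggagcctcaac
Klk1b11 (chr7:43995777-43995876): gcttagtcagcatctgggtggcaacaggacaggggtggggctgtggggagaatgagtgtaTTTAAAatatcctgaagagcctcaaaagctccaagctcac
Klk1b22 (chr7:44112573-44112672): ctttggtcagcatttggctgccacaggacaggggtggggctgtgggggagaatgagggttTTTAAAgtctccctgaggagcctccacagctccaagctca

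All 3 hold TTTAAA, a motif that reads the same on both strands. Beginning 10 to 45 bases before the start it was in 10 of 13 kallikreins, in 13 of the 28 members with a promoter and in 2.05% of all promoters. The kallikrein promoters were 80.4% to 91.6% identical to that of Klk1b26 over the aligned bases, and that of Klk1b22 was 82.8% identical. With TATAAA counted as well (Pip and Ren1, and 2.35% of all promoters), 20 of 28 members had at least 1 of the 3 motifs in that window, against 5.52% of all promoters. Members with several annotated starts were counted once, by any of them.

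Muc19, Prol1, Egf and Ren1 were, like most kallikreins, high in recombined library 2 and unrecombined library 2 and low in wild type library 2. Muc19, the gel-forming mucin of sublingual mucous cells, stood at 0, 262, 0 and 0.0412 CPM in recombined libraries 1 to 4, at 0, 1088, 0.503 and 0.102 in unrecombined libraries, and at 0, 1.74, 0.175 and 0 in wild type libraries. Per 100 counts of Psp it had 2.83 and 2.68 counts in recombined library 2 and unrecombined library 2. In wild type library 2 it had 0.00806, from 45 counts. Between recombined library 2 and unrecombined library 2 it was 4.15 times higher in the latter, within the range of the parotid-type entries and above that of the kallikreins. Its entry also names Smgc, a submandibular gland gene that overlaps it, and the 2 cannot be told apart.

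Prol1, a proline-rich mucin-type protein of the submandibular gland, stood at 520.1 and 567 CPM in recombined library 2 and unrecombined library 2, and at 1.94 in wild type library 2. The other 9 libraries had at most 0.180 CPM. Prol1 was 1.09 times higher in unrecombined library 2 than in recombined library 2, where Psp was 4.39 times higher. Prol1 and Smr3a, both placed with submandibular acini, were therefore split by wild type library 2, which had 2399 CPM of Smr3a.

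Egf encodes epidermal growth factor and Ren1 encodes renin, the protease that cleaves angiotensinogen, both stored in granular ducts. Egf stood at 64.1 CPM in recombined library 2 and 164 in unrecombined library 2, and at no more than 0.869 in each of the other 10 libraries, wild type library 2 included (0.658). Ren1 stood at 21.4 and 43.6 CPM in recombined library 2 and unrecombined library 2 and at no more than 0.306 elsewhere. Summed over the 15 granular duct-type members, levels averaged 337 ± 668 CPM in recombined, 499 ± 989 in unrecombined and 29.03 ± 50.4 in wild type libraries (SD, n = 4 each).

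**Figure D3:**
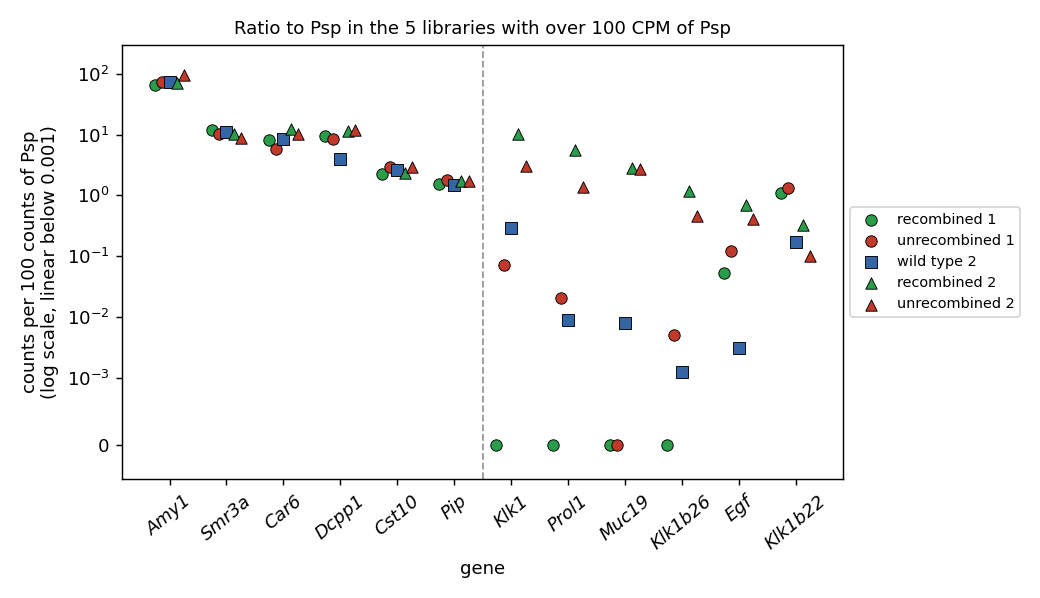
Counts of 12 members per 100 counts of Psp (y axis, log scale, linear below 0.001) in the 5 libraries with more than 100 CPM of Psp, with circles for libraries numbered 1, triangles for recombined library 2 and unrecombined library 2, squares for wild type library 2 and color for the group. Genes left of the dashed line vary less (Smr3a 8.69 to 11.7, Dcpp1 4.01 to 12.03), while those right of it spread more, Klk1 from 0 to 10.4. The 12 genes and the place of the line were picked by hand, so the split partly reflects that choice. Of members not shown, Dcpp2 and Dcpp3 varied 5.10-fold and 4.08-fold, more than any gene left of the line. Lpo and Dnase1, also not shown, varied 2.20-fold and 2.01-fold.

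Aqp5 encodes the water channel of salivary acinar cells and is also found in other secretory epithelia. It stood at 4.81, 11.51, 2.85 and 3.67 CPM in recombined libraries 1 to 4, at 8.04, 24.9, 7.15 and 12.8 in unrecombined libraries, and at 7.32, 6.31, 14.4 and 24.2 in wild type libraries. It was present in every library and did not follow Psp: wild type library 4, with 1 count of Psp, had nearly the level of unrecombined library 2. Aqp5 therefore does not separate these libraries.

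Per length of transcript, which allows genes to be compared, Psp ranked first in the 3 libraries numbered 2, and the order of the others differed. In unrecombined library 2 Psp had 41539 CPM per kilobase, Dcpp1 7924, Smr3a 5560, Car6 2627, Cst10 1465, Klk1 1313 and Prol1 487. In recombined library 2 the same genes had 9462, 1724, 1466, 718, 270, 1006 and 447 CPM per kilobase. In wild type library 2 they had 22101, 1405, 3778, 1164, 706, 65.7 and 1.66. Klk1 was thus above Car6 and Cst10 in recombined library 2 and below both in the other 2 libraries. Members in joined entries were left out of this ranking, since their length is not defined.

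Other salivary genes, from a list of genes that are no members, were found for 23 of 33 symbols. That list was also chosen with earlier results of these data known, so its levels are a description and no separate support. The most abundant was Spt1, a salivary protein gene, with 1666 CPM in recombined library 2, 2556 in unrecombined library 2 and 2.67 in wild type library 2, and at most 0.0436 elsewhere. Mucl1, a mucin-like gene, had 270 and 516 CPM in recombined library 2 and unrecombined library 2, 0.0387 (1 count) in wild type library 2, and 0 counts in each of the other 9. Both were thus present where the kallikreins were. Prpmp5, a proline-rich salivary protein gene, had 2.53 CPM in recombined library 2, 14.6 in unrecombined library 2 and 5.22 in wild type library 2. In recombined library 1 and unrecombined library 1 it had only 0.119 and 0.109 CPM, near or at the limit of 3 counts. Lcn2 and Ltf, which are also made by the mammary gland, had at least 128 and 43.5 CPM in every library and did not separate them.

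Genes of duct ion transport were all found, 14 of 14, and summed to 97.7 to 192 CPM in recombined, 115 to 236 in unrecombined and 57.8 to 145 in wild type libraries. For 7 of the 14, recombined library 2 and unrecombined library 2 were the 2 highest libraries, and for the other 7 (Scnn1a, Scnn1b, Scnn1g, Atp6v1b1, Slc4a4, Foxi1 and Slc26a4, the last with 1 count in all) they were not. Cftr, a chloride channel, had 21.6 and 32.7 CPM in recombined library 2 and unrecombined library 2, 2.32 in wild type library 2 and at most 1.55 elsewhere. Kcnj16, a potassium channel, had 17.5 and 20.4 CPM in that pair and at most 1.35 in the other 10 libraries. Scnn1a, a sodium channel subunit, was instead present in all libraries, with 7.75 to 69.7 CPM. The summed acinar secretory list (22 of 22 found) was led by Slc12a2 and ranged from 1384 to 2222 CPM in recombined, 2196 to 4509 in unrecombined and 1913 to 5768 in wild type libraries.

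Markers of other tissues were read beside these values. Pancreas acinar genes (12 of 21 found) summed to 6.47 to 19.4 CPM in recombined, 8.86 to 18.4 in unrecombined and 11.46 to 15.7 in wild type libraries, with Cpa1 at 0 counts throughout. Most of that sum lay in Cel (mean 3.87 CPM) and in an entry that joins Cela2a with Casp9 (mean 6.82 CPM). The joined entry may include reads of Casp9. Skeletal muscle genes (18 of 18 found) summed to 4.51 to 19.4, 4.20 to 9.71 and 8.67 to 14.4 CPM, and lymphocyte genes (15 of 17) to 0.618 to 8.94, 1.63 to 6.33 and 1.15 to 8.05 CPM. The immunoglobulin gene on that list, Ighm, was not found by symbol, so the sum holds no immunoglobulin locus. A joined heavy chain entry, singled out after its values were seen, stood at 64.8, 112 and 35.2 CPM in recombined, unrecombined and wild type libraries 2 and at no more than 6.15 elsewhere. A joined entry of antibody parts on chromosome 6 stood at 84.2, 155 and 37.1 CPM in the same libraries and at no more than 6.94 elsewhere. Lacrimal and lipocalin gland genes (6 of 15) reached 10.8 CPM in recombined library 2 and 27.1 in unrecombined library 2 and at most 1.12 in wild type libraries. Mammary luminal genes (16 of 16) stayed at 2530 to 6281, 6623 to 9456 and 5997 to 10453 CPM. The part of any of these cells in the salivary counts was not tested.

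Genes most like the members were named by the cosine similarity of their CPM over the 12 libraries, among 14194 entries with at least 100 counts. To the summed parotid-type entries the nearest descriptive symbols were Crisp1 (0.998), Chia (0.997), Prpmp5 (0.995), Ggh (0.994), Igj (0.994), Amy2b (0.9898), Epha5 (0.986), Mup5 (0.981), Gjb1 (0.979) and Gsta2 (0.957). Chia, an acidic chitinase, stood at 138 and 1179 CPM in recombined libraries 1 and 2, 126 and 8521 in unrecombined libraries 1 and 2, 4481 in wild type library 2 and at most 0.538 in the other 7. To the summed submandibular entries the nearest were Pax9 (0.996), Epha5 (0.994), Igj (0.991), Crisp1 (0.975), Mup5 (0.973), Slc25a21 (0.972), Prpmp5 (0.970), Pde1c (0.970), Wfdc12 (0.968) and Ggh (0.968). That sum is led by Smr3a, so several genes are on both lists. Since a few libraries carry most of these counts, similarity rests on few points: the median over all entries was 0.407 to the parotid-type sum and 0.432 to the submandibular sum.

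With those libraries in all 3 groups, the comparisons of groups were made across the whole table, by edgeR's quasi-likelihood F test with Benjamini-Hochberg adjustment over the 14039 loci tested. Of the 29 members, 18 passed the filter on low counts. The 11 that did not are Prol1, Ren1 and the kallikreins Klk1b3, Klk1b4, Klk1b5, Klk1b9, Klk1b16, Klk1b21, Klk1b24, Klk1b26 and Klk1b27, which reached the filter's minimum in fewer than 4 libraries. Without the 5 libraries with more than 100 CPM of Psp, 5 of the 18 (Amy1, Car6, Dnase1, Egf and Aqp5) passed the filter and the other 13 did not.

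In recombined against wild type libraries, which asks what differs between SmoM2-positive cells and cells without Cre, edgeR called 0 of the 18 members. Of all loci, 6.55% were called (4.17% higher and 2.38% lower). At an unadjusted p under 0.05 there was 1 of 18 members, beside 20.6% of all loci. The Wald test of DESeq2 also called 0, but gave an adjusted p for only 2 of the 18, here and in each of the other comparisons. In unrecombined against wild type libraries 0 of 18 were called, 0 at an unadjusted p under 0.05, and 0% of all loci were called (3.85% at an unadjusted p under 0.05); DESeq2 called 0. In recombined against unrecombined libraries 0 of 18 were called and 1 was at an unadjusted p under 0.05, where 5.22% of all loci were called (3.08% higher and 2.14% lower) and 18.01% were at an unadjusted p under 0.05, and DESeq2 called 0. The main fit did not pair recombined and unrecombined libraries of the same number. With the replicate number as a block, edgeR also called 0 members in recombined against unrecombined libraries. The levels of all 29 members overlapped between the groups in each comparison. The share of all loci that overlapped was not counted, so this does not set the members apart.

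The fitted differences were wide. For Psp the log2 fold change was -1.12 ± 4.09 (SE) in recombined against wild type libraries, 0.94 ± 4.08 in unrecombined against wild type and -2.06 ± 4.20 in recombined against unrecombined, with edgeR adjusted p of 0.918, 1.00 and 0.859. Those of Klk1 were 3.94 ± 3.94, 4.32 ± 4.01 and -0.38 ± 3.495, with edgeR adjusted p of 0.638, 1.00 and 0.970. Of the 18, Muc19 had the largest fitted values against wild type, with 7.11 ± 4.02 in recombined and 9.16 ± 4.33 in unrecombined libraries (edgeR adjusted p of 0.368 and 1.00), and -2.05 ± 3.05 between the groups with Cre (0.797). Dcpp1 had 0.38 ± 3.57, 2.51 ± 3.77 and -2.13 ± 3.71. Smr3a had -1.25 ± 3.68, 0.59 ± 3.64 and -1.83 ± 3.74, and Cst10 -1.29 ± 3.20, 1.08 ± 3.18 and -2.36 ± 3.30, none of them past the threshold. These values rest on single libraries, and their direction turned when 1 library was left out. For Psp in recombined against wild type libraries the value ran from -4.56 to 14.93 over the 8 libraries left out in turn, and was at its highest without wild type library 2.

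The median SE of the 18 members was 3.16, 3.19 and 2.93 on the log2 scale in the 3 comparisons, in the order above, against 0.37 over all loci in each. Their median log2 fold changes were -0.78, 1.17 and -1.83, beside -0.02, -0.00 and -0.01 over all loci tested. The comparisons share libraries, so these are not separate pieces of evidence. The biological coefficient of variation of the members was between 1.49 and 6.27, Aqp5 aside (0.543), against a median of 0.388 over all tested loci. Klk1 had the highest of the members (6.27), at the 99.99th percentile.

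Aqp5, singled out after its values were seen, was the member with an unadjusted p under 0.05. Its log2 fold change was -1.19 ± 0.552 in recombined against wild type libraries (edgeR adjusted p = 0.240) and -1.21 ± 0.552 in recombined against unrecombined libraries (edgeR adjusted p = 0.266), so it did not pass. Without the 5 libraries with more than 100 CPM of Psp, an alternative chosen after seeing the data, the first value was -2.19 ± 0.587 (edgeR adjusted p = 0.0618). Only recombined libraries 3 and 4, unrecombined libraries 3 and 4 and wild type libraries 1, 3 and 4 are left there. In these remaining libraries 5 members were tested and 0 called in each comparison. Their summed parotid-type level averaged 84.7 CPM in recombined, 81.1 in unrecombined and 92.1 in wild type libraries.

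**Figure D4:**
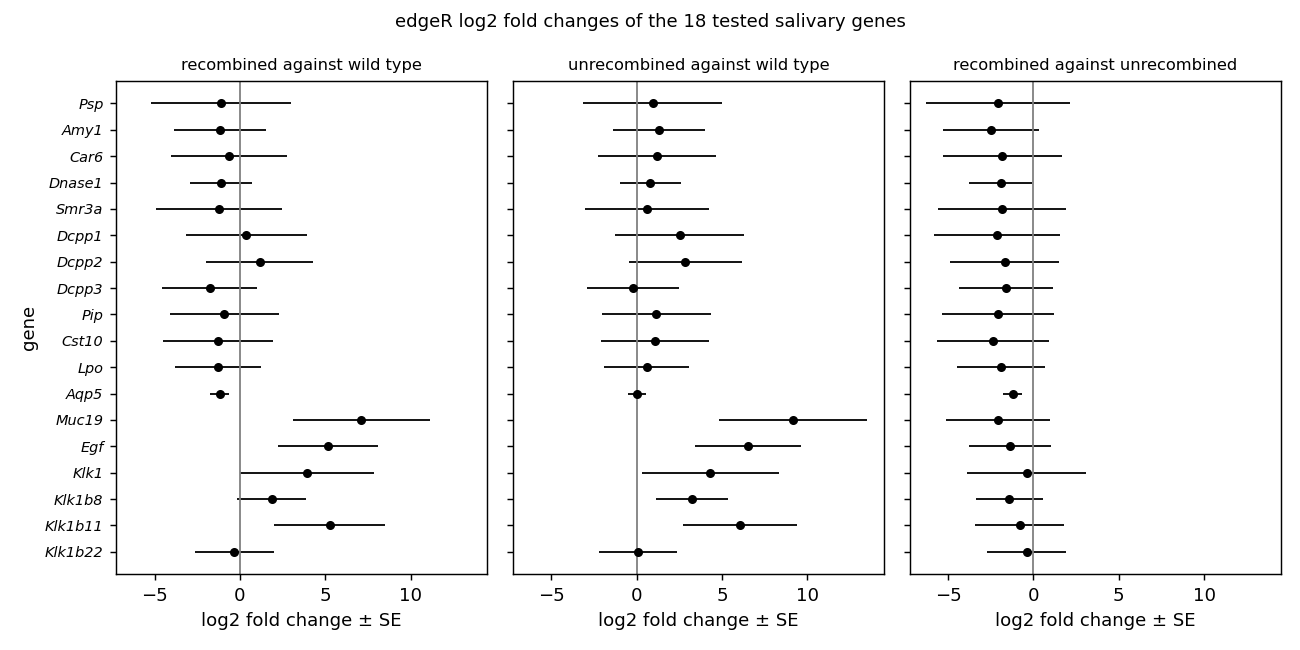
Log2 fold change ± SE (x axis) of the 18 tested members (y axis) in the 3 comparisons, from edgeR. The bars of nearly all members are several log2 units long and 0 of 18 passed the threshold in any comparison; Aqp5 has the shortest bars (SE 0.552 in recombined against wild type libraries).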

How the data were processed

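The authors deposited 1 table of read counts per gene for 12 libraries, whole numbers with a different total in each library. Per the submitters' processing notes, reads were processed with STAR and HTSeq 0.3.1, on mouse build mm9; options, strand setting and annotation are not given in the sources used here. Without strand, a gene and an antisense partner cannot be told apart. The table has 36635 entries, of which 16521 name several loci and were kept out of the main fit, and 0 columns belonged to no sample. Library numbers, group and replicate came from the labels.

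Members were found by symbol. Members and gene lists were chosen with earlier results of these data known. Counts were scaled by TMM and tested with edgeR 4.0.16 in R 4.3.3 (quasi-likelihood F test, robust, two-sided, all 12 libraries in 1 fit, a mean per group, threshold 0.05). The code was tested on simulated data. Log2 fold changes are given for the member with the highest mean CPM of each class, and for Aqp5, singled out later. Of other genes, the 10 nearest by cosine similarity with a descriptive symbol and the leading genes of the lists may be named. Precision is limited by 4 libraries per group. A count of 3 was taken as the limit that 0 allows.

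Replicate numbers were checked as pairs by correlating deviations from group means over the tested loci. Recombined and unrecombined libraries of the same number gave r of 0.239, 0.399, 0.244 and 0.298 (other numbers -0.240 to -0.0345), so the numbers pair these groups. Wild type gave -0.0314, 0.185, 0.109 and 0.125 with recombined (other numbers -0.147 to 0.169) and 0.00248, 0.312, 0.157 and 0.159 with unrecombined libraries (other numbers -0.247 to 0.337). Number 1 was under 0.1, so wild type was not taken as paired. The main fit has no replicate block.

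Alternatives were DESeq2 1.42.0 size factors and Wald test, upper quartile scaling, no filter, only the groups compared, the replicate block, a covariate for the series of the library number, multi-locus entries added, raw totals, other classes and each library left out. Chosen after seeing the data were the fit without the 5 libraries with over 100 CPM of Psp, scaling without the members, and the block with only the groups compared. Promoters came from RefSeq (GRCm38.p6) and transcript lengths from GENCODE; neither was used with the mm9 positions.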

Additional observations from a re-analysis of the deposited data

Results flagged for a closer look

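For 71 of 83 pairs of a member and a group of 4 libraries, the gap between the highest library and the next, divided by the range of the group, was above the 95% critical value of Dixon's test. Members were chosen by these same levels, so the ratios describe the choice and are no test of it. Chance gives about 1 in 20 such groups for values with normal error. Over tested loci that are no member the same was true of 8.24% of pairs, counting gaps at either end. Those loci all passed the filter on low counts, while the 83 pairs include members that did not, so the shares are not like for like. The library was unrecombined library 2 for 27 members, recombined library 2 for 25, wild type library 2 for 18 and wild type library 1 for 1 (Klk1b9, from 2 counts).

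Among recombined libraries the ratio was 0.91 for Smr3a and Dnase1, 0.93 for Psp, Pip and Cst10, 0.94 for Amy1 and Dcpp1, 0.95 for Car6, 0.97 for Dcpp2, 0.99 for Egf, Klk1b3 and Klk1b8, and 1.00 for Muc19, Prol1, Ren1, Klk1 and 9 other kallikreins. Among unrecombined libraries it was 0.93 for Dcpp3, 0.98 for Psp, Smr3a, Pip, Cst10 and Klk1b3, 0.99 for Amy1, Dcpp1, Dcpp2, Car6, Lpo, Dnase1, Ren1, Klk1b8 and Klk1b16, and 1.00 for Muc19, Prol1, Egf and 9 kallikreins, Klk1 among them. Among wild type libraries it was 0.90 for Muc19, 0.96 for Klk1b11, 0.98 for Prol1, 0.99 for Dnase1 and 1.00 for the remaining 15, which include Psp, Amy1, Smr3a, Car6, Pip and the 3 Dcpp genes. Klk1b22 and Aqp5 were under the critical value in every group.

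Entries that name several loci were outside the comparisons. The 174 of them that name a member held 4010 counts in recombined library 2 and 12115 in unrecombined library 2, above the highest wild type library (2542, library 2). In libraries 1 of recombined and unrecombined cells they held 139 and 66 counts, and in the other 7 libraries at most 5. The most abundant named Amy2b with the Amy1 entry (4191 counts in unrecombined library 2), Dcpp1 with Dcpp2 (2799) and Klk1b5 with Klk1 (1803). What such an entry means is not stated in the labels or the table.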

How the results depend on the processing

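The number of members called stayed 0 in each comparison under every alternative but 1. Some alternatives tested few members, so their 0 says little. The Wald test of DESeq2 gave an adjusted p for 2 members in each comparison. With only the groups compared, 7, 6 and 13 members were tested in the 3 comparisons, in the order used before. With the replicate number as a block, edgeR called 3 members in recombined against wild type libraries, all higher: Muc19 (6.66, adjusted p = 0.0341), Klk1 (3.70, adjusted p = 0.0349) and Klk1b11 (4.26, adjusted p = 0.0437), with 1194 of all loci called against 920. These 3 calls rest on the libraries numbered 2. Recombined and wild type libraries 2 had 7154 and 45 counts of Muc19, 26174 and 1619 of Klk1, and 2082 and 49 of Klk1b11. Outside the libraries numbered 2, none of the 3 had more than 14 counts in any library. Wild type was not taken as paired because of number 1, while numbers 2 to 4 correlated at 0.109 to 0.312, and the cause was not tested. In that fit Psp turned to 1.55, Smr3a to 1.499 and Cst10 to 0.85, and Aqp5 in unrecombined against wild type libraries to -0.18. The block called 0 members in the 2 other comparisons, also with only recombined and unrecombined libraries fitted (smallest adjusted p = 0.0516, Aqp5).

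The value of Aqp5 in unrecombined against wild type libraries, 0.02, also turned to -0.0283 with upper quartile scaling, to -0.00258 with the library number series and to -0.61 without the 5 libraries with over 100 CPM of Psp. The cause was not tested.

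Log2 fold changes over the libraries left out in turn, in recombined against wild type, unrecombined against wild type and recombined against unrecombined libraries, were for Psp -4.56 to 14.93, -4.52 to 16.99 and -5.50 to 3.40. They were for Smr3a -4.48 to 15.73, -4.66 to 17.56 and -5.07 to 3.42. They were for Dcpp1 -3.33 to 14.00, -3.44 to 16.13 and -5.85 to 3.82. They were for Cst10 -4.72 to 8.45, -4.39 to 10.82 and -5.80 to 3.10. They were for Muc19 -4.74 to 10.21, -1.21 to 12.26 and -13.90 to 8.32. They were for Klk1 -11.71 to 15.65, -6.53 to 16.04 and -16.03 to 10.47. They were for Aqp5 -1.78 to -0.71, -0.48 to 0.50 and -1.80 to -0.70. Of these 168 values, 27 had turned direction and 0 passed the threshold. Psp, Smr3a and Cst10 turned in recombined against wild type libraries without wild type library 2, and in the other comparisons without unrecombined library 2.

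The Wald test of DESeq2 called 1617, 78 and 1349 of all loci in the 3 comparisons, against 920, 0 and 733 with edgeR. Mean summed levels ran from 472 to 6245 CPM (parotid-type, recombined), 494 to 28997 (unrecombined) and 92.1 to 13464 (wild type) over the libraries left out. The limits are 4 libraries per group, unknown animals and strand, joined entries, and shared sequence among kallikreins, among Dcpp genes and of Smr3a with another gene.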

Other observations

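A set of other genes, chosen after the values were seen, followed the kallikreins more closely than Psp. By cosine similarity of CPM over the 12 libraries to the sum of the 13 kallikreins, the nearest descriptive symbols were Abpb, Efcab4b, Stxbp5l, Abpa, Abpg, Klk1b1, Cftr, Spt1, Ces1d and Kcnj16, with values from 1.00 to 0.995. The median over all entries was 0.386. Abpa encodes a subunit of androgen-binding protein, a secreted salivary protein of mice. It stood at 628 CPM in recombined library 2, 959 in unrecombined library 2 and 26.9 in wild type library 2, at 4.06 and 7.46 in recombined library 1 and unrecombined library 1, and at 0.0538 or less in the other 7. Abpb stood at 107, 143 and 7.66 CPM in recombined, unrecombined and wild type libraries 2, and Abpg at 34.9 and 48.9 CPM in the first 2 of these.

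Pax9, a developmental transcription factor, stood at 9.38, 16.3 and 6.85 CPM in recombined, unrecombined and wild type libraries 2 and at no more than 0.181 in each of the other 9. Igj, the joining chain of secreted immunoglobulins, stood at 3.15, 10.3 and 4.30 CPM in recombined, unrecombined and wild type libraries 2 and at no more than 0.480 elsewhere.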
